A study of Mus musculus with 6 samples.

Results

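The genes described here are 10 regulators that restrain or pair with MyoD, the transcription factor that commits cells to muscle. They are Id1, Id2, Id3, Twist1, Twist2, Msc, Mdfi, Snai2, Zeb1 and Tcf12. They were taken by gene symbol from the platform annotation of the arrays, where each had 1 probe set, and they are 10 of the 19938 genes with 1 symbol that were measured. RNA came from C2C12, an established line of mouse myoblasts that fuse into myotubes in low serum, and the cells are called wild type in the labels. The 2 groups were cells transfected with H19 siRNA (simH19) and cells transfected with control siRNA (siCon), with 3 arrays each. Both groups grew in 10% fetal bovine serum, were switched to 2% horse serum at high density, were transfected on day 1 of differentiation and were collected 40 h later. Replicates are transfections made in triplicate. The labels do not say whether these were separate cultures, so the p-values rest on a spread among arrays that may be technical only.

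MyoD and the other myogenic basic helix-loop-helix (bHLH) factors bind DNA at short E-box motifs as dimers with an E protein, such as the one encoded by Tcf12. ID proteins have the dimerisation domain but no DNA-binding region, so they hold E proteins in dimers that cannot bind. Twist proteins and musculin (Msc) are bHLH factors that compete for E proteins or E-boxes, I-mfa (Mdfi) retains myogenic factors outside the nucleus, and SNAI2 and ZEB1 are zinc-finger repressors that bind E-boxes of muscle genes. Levels of ID genes are known to decline as myoblasts differentiate. The comparison of H19 siRNA with control siRNA shows what each of these transcripts did when H19, an imprinted long noncoding RNA, was depleted after differentiation had begun.

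The arrays were Affymetrix whole-transcript arrays, and all levels are deposited log2 values, on which a difference of 1 is a doubling. Pearson's r across all rows was 0.9958 to 0.9975 for the 15 pairs of arrays. H19 siRNA replicate 2 was the least like the rest, with a mean r of 0.9962 to them against 0.9968 to 0.9971 for each of the other arrays. The labelled depletion was checked through the probe set listed under Mir675, a microRNA hosted by H19, and Supt6. It read 10.38, 10.28 and 10.37 on the H19 siRNA arrays, against 12.21, 12.22 and 12.27 on the control siRNA arrays. The 11 markers of myoblasts and myotubes all lay above the median level of all units, as did 5 of 7 fibroblast markers. This was the case for 0 of 5 adipocyte, 0 of 5 endothelial, 1 of 5 bone and cartilage and 1 of 6 macrophage markers. The mean of the muscle markers was 11.62 to 11.67 on the H19 siRNA arrays, against 11.50 to 11.51 on the control siRNA arrays. All 11 recur below among the myogenic factors or the genes activated by MyoD, so this mean is not separate from those results. Fibroblast markers moved the other way in their mean, at 9.77 to 9.81 on the H19 siRNA arrays and 9.97 to 10.01 on the control siRNA arrays. Of these 7 genes Dcn and Lum fell, at -0.50 and -0.95 (limma adjusted p = 0.00727 and 0.0227). A positive difference was found for 4 of the 7 fibroblast markers, and the median difference of the 7 was 0.01. The part of these markers in the results below was not tested. In bulk RNA, fewer cells of a type and less RNA per cell cannot be told apart.

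None of the 10 regulators passed the test. The test was limma with a Benjamini-Hochberg adjusted p under 0.05 over all 21559 units (1 probe set a gene, with probe sets of several symbols kept unnamed), and it called 43 units, or 0.199% (0.125% higher and 0.0742% lower). Adjusted p-values of the 10 genes ran from 0.408 for Zeb1 to 0.981 for Id3, and 0 of them passed in any of the 15 processing alternatives. At an unadjusted limma p under 0.05 there were 4 of the 10, namely Twist2, Msc, Mdfi and Zeb1, where 10.9% of all units lay below that value. The 95% intervals allowed changes no larger than 0.849-fold (Twist1) and 1.27-fold (Msc). For 9 of the 10 genes the interval stayed within 0.25 on the log2 scale either way, or 1.19-fold, and Msc was the exception.

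**Figure D1:**
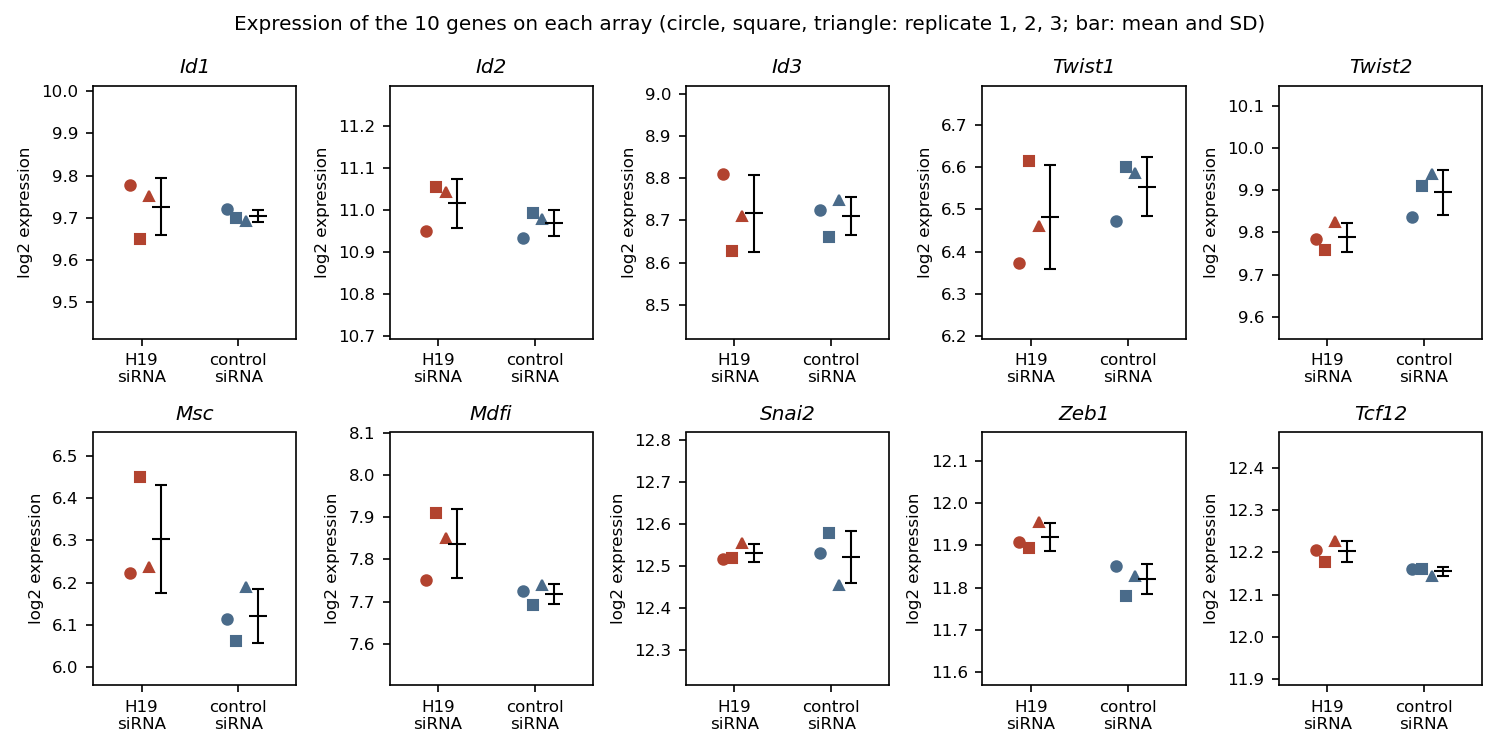
Log2 expression of each of the 10 genes on every array, with H19 siRNA left of control siRNA in each panel, 1 marker shape per replicate number, and the mean and SD (n = 3) beside the points. Every panel spans the same 0.6 log2 units around its own centre. The groups do not overlap for Twist2, Msc, Mdfi, Zeb1 and Tcf12.

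The 3 ID genes, which take E proteins away from MyoD, showed overlapping groups. Id1 read 9.78, 9.65 and 9.75 on the H19 siRNA arrays, against 9.72, 9.70 and 9.69 on the control siRNA arrays. Its difference was 0.02 on the log2 scale (SE 0.04, 95% interval -0.08 to 0.12). The 3 control arrays fell between the lowest and the other two H19 siRNA arrays. Id2, the ID gene also known for binding the retinoblastoma protein, read 10.95, 11.05 and 11.04 with H19 siRNA, against 10.93, 10.99 and 10.98 with control siRNA. The difference was 0.05 (SE 0.04, interval -0.05 to 0.15), and only H19 siRNA replicate 1 lay within the range of the controls. Id3 read 8.81, 8.63 and 8.71 with H19 siRNA, against 8.72, 8.66 and 8.75 with control siRNA, a difference of 0.01 (SE 0.05, interval -0.12 to 0.14). The H19 siRNA arrays of Id3 spread beyond the controls on both sides. Differences of Id1 and Id3 had no stable sign: after centring each array on its median they were -0.00097 and -0.017. In fold terms the intervals for Id1, Id2 and Id3 were 0.945 to 1.09, 0.964 to 1.11 and 0.918 to 1.10.

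Twist1 and Twist2 encode close relatives that bind E proteins and block MyoD, and both had negative differences. Twist2 read 9.78, 9.76 and 9.83 on the H19 siRNA arrays, against 9.84, 9.91 and 9.94 on the control siRNA arrays. It was the single member with every H19 siRNA array below every control array. The gap between the nearest arrays was narrow, and the difference was -0.11 (SE 0.04, interval -0.20 to -0.01) with a limma adjusted p of 0.421. Twist1 read 6.37, 6.61 and 6.46 with H19 siRNA, against 6.47, 6.60 and 6.59 with control siRNA, and its difference was -0.07 (SE 0.07, interval -0.24 to 0.09). H19 siRNA replicate 2 was the highest of all 6 arrays for Twist1, so the groups overlapped. Without that array the difference of Twist1 was -0.14, but without H19 siRNA replicate 1 it was -0.017. The probe set of Twist1 lay at the 40.2nd percentile of all units by level. Whether small fold changes were compressed at such dim probe sets was not tested. Msc, described next, was dimmer still, at the 35.9th percentile, and had the largest difference of the 10.

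Msc had the largest difference of the 10 genes and the widest interval. Musculin, its product, is a bHLH repressor of E-box genes. Msc read 6.22, 6.45 and 6.24 on the H19 siRNA arrays, against 6.11, 6.06 and 6.19 on the control siRNA arrays. All H19 siRNA arrays lay above all controls, by a margin that was small next to the distance of H19 siRNA replicate 2 from the other two. The difference was 0.18 (SE 0.07, interval 0.02 to 0.35), with a limma adjusted p of 0.419, and it was 0.11 without H19 siRNA replicate 2. The Msc probe set was the dimmest of the 10 relative to all units, at the 35.9th percentile.

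Mdfi, encoding the cytoplasmic inhibitor I-mfa, read 7.75, 7.91 and 7.85 on the H19 siRNA arrays, against 7.72, 7.69 and 7.74 on the control siRNA arrays. Groups did not overlap, but the lowest H19 siRNA array was close to the highest control. Its difference was 0.12 (SE 0.05, interval 0.01 to 0.23, limma adjusted p = 0.441), and 0.08 without H19 siRNA replicate 2. After a second quantile normalisation the groups of Mdfi overlapped. Its relative Mdfic, which shares the I-mfa domain, averaged 11.72 ± 0.02 with H19 siRNA and 11.67 ± 0.005 with control siRNA (SD, n = 3 each). That is a difference of 0.04 with a limma adjusted p of 0.658.

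Of the zinc-finger repressors, Zeb1 had the smallest p of the 10 genes and Snai2 was level. Zeb1 read 11.91, 11.89 and 11.96 on the H19 siRNA arrays, against 11.85, 11.78 and 11.83 on the control siRNA arrays. Every H19 siRNA array was above every control, and the difference of 0.10 (SE 0.04, interval 0.01 to 0.19) equals a 7.14% higher level. Its limma adjusted p was 0.408, and it came nearest to the threshold, at 0.0690, under an intensity trend with robust variance. Snai2, a repressor known to keep MyoD off muscle enhancers in myoblasts, read 12.52, 12.52 and 12.55 with H19 siRNA, against 12.53, 12.58 and 12.46 with control siRNA. Its difference was 0.01 (SE 0.04, interval -0.09 to 0.11), and -0.014 after centring each array on its median. The control arrays of Snai2 enclosed the H19 siRNA arrays.

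Tcf12 encodes the E protein HEB, a partner and not an inhibitor of MyoD. It read 12.21, 12.18 and 12.23 on the H19 siRNA arrays, against 12.16, 12.16 and 12.14 on the control siRNA arrays. The groups did not overlap, but the step was small, at 0.05 (SE 0.03, interval -0.03 to 0.12, limma adjusted p = 0.646). The other two E protein genes had differences of opposite sign, Tcf3 at 0.05 (interval -0.06 to 0.16) and Tcf4 at -0.05 (interval -0.13 to 0.03). Tcf3 averaged 10.50 ± 0.06 with H19 siRNA and 10.45 ± 0.05 with control siRNA, and Tcf4 averaged 11.68 ± 0.03 with H19 siRNA and 11.73 ± 0.02 with control siRNA (SD, n = 3 each).

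Groups did not overlap for 5 of the 10 genes, 4 higher with H19 siRNA (Msc, Mdfi, Zeb1 and Tcf12) and 1 lower (Twist2), where 17.6% of all units had groups that did not overlap (10.5% higher and 7.09% lower). For each of these 5 an exact permutation test gave 0.1 (two-sided), the smallest value that 3 against 3 arrays allow. Groups that do not overlap always give that value, so it adds nothing to the count. The share exceeds the background, but the genes were chosen with earlier results of these data known, and no test of the share is given. It was not particular to them: such groups were found for 9 of 20 relatives and 4 of 6 E protein and myogenic factor genes. In the other lists described below they were found for 17 of 24 genes activated by MyoD and 5 of 22 cofactors. For BMP and SMAD genes it was 5 of 23, and for epithelial genes 2 of 14. Positive differences were found for 8 of the 10 genes, against 58.0% of all units. The median difference was 0.03, against 0.01 over all units, and the median size of a difference was 0.06, against 0.05. After centring each array on its median 5 of the 10 were positive. The share of all units that stayed positive was not counted. Centring lowered both medians, to 0.011 for the 10 genes and to -0.0087 over all units. Twist2, Msc and Zeb1 kept groups apart in every alternative that included them. Msc and Twist1 were not above the median level, so the filter at the median left 8 genes.

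**Figure D2:**
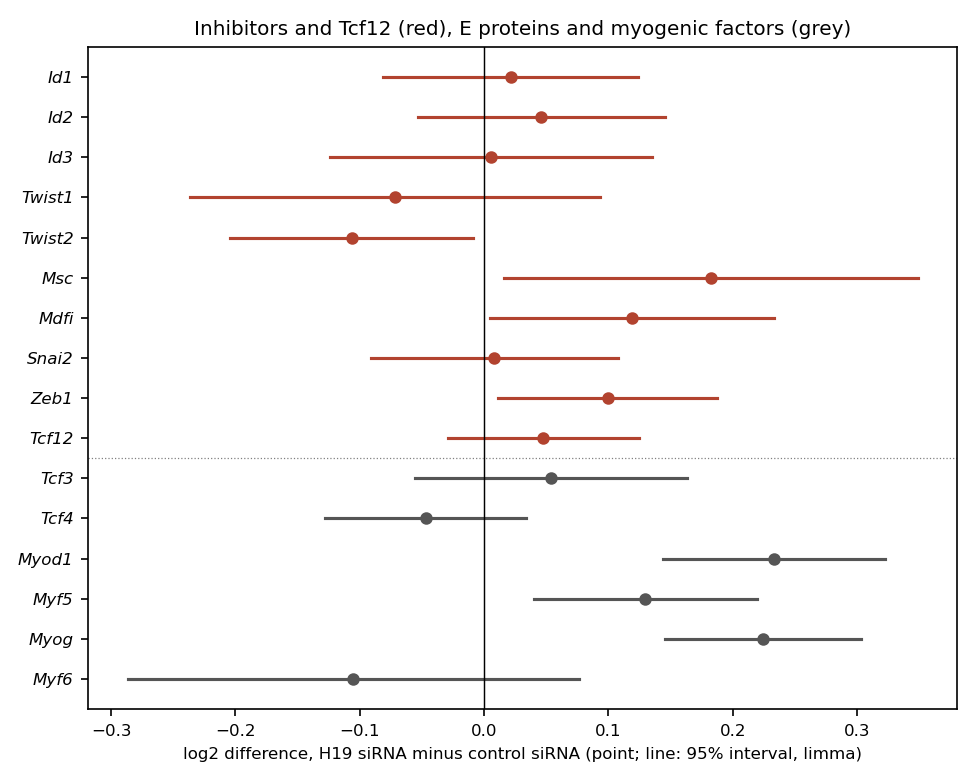
Log2 difference of each gene, H19 siRNA minus control siRNA (horizontal axis), as a point with its 95% interval from limma; the 10 regulators are red and the remaining E protein and myogenic factor genes grey. The intervals of the 3 ID genes, Twist1, Snai2 and Tcf12 include 0, and those of Myod1 and Myog lie above 0.14.

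Myod1 and Myog, whose products the regulators act on or beside, had larger differences than any of the 10 regulators. Both intervals overlapped those of Msc, Mdfi and Zeb1, and that of Myod1 also overlapped Id2's. Myod1 itself read 11.83, 11.74 and 11.78 on the H19 siRNA arrays, against 11.55, 11.52 and 11.58 on the control siRNA arrays. The difference was 0.23 (SE 0.04), with a limma adjusted p of 0.0965, so it did not pass. Myog, the myogenin gene that MyoD activates, differed by 0.22 (SE 0.03, limma adjusted p = 0.0779) and Myf5 by 0.13 (limma adjusted p = 0.290). Myf6, the factor of late muscle, was at -0.11 with an interval from -0.29 to 0.08. Of the 6 genes in the list of E proteins and myogenic factors 0 passed. With an intensity trend and robust variance Myod1, Myog and Myf5 passed (3 higher, 0 lower, where 2.02% of all units passed), and Myod1 and Myog also passed when only units above the 30th percentile of level (0.736% of them called) or above the median (2.47% called) were kept.

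Levels were then set against Myod1 on the same array, as a measure of unequal change. Relative to Myod1, 8 of the 10 regulators were lower on every H19 siRNA array than on every control array, from -0.13 for Zeb1 to -0.34 for Twist2. The same held for 75.2% of all units other than Myod1, and every one of these values contains the Myod1 reading of its array. Id1 minus Myod1 was -0.20, -0.25 and -0.18 on the H19 siRNA arrays relative to the control mean, against 0.02, 0.02 and -0.04 on the control arrays. Msc and Mdfi were the exceptions, with differences of -0.05 (exact permutation p = 0.7, two-sided) and -0.11 (exact permutation p = 0.3, two-sided). Their H19 siRNA arrays overlapped the controls on this scale.

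E-boxes, the motifs where MyoD dimers and most of these repressors bind, were looked up in RefSeq promoter windows of build GRCm38.p6, from 250 bases before to 50 after a start. The table matched 6 of the 10 genes in 9 windows (Id2, Id3, Twist1, Twist2, Mdfi and Tcf12). Id1, Msc, Snai2 and Zeb1 were not matched. Shown are the windows of Myog, a gene on which MyoD and its inhibitors converge, of Id2, and of Mdfi at its first start, with each CANNTG on either strand in capitals.
Myog: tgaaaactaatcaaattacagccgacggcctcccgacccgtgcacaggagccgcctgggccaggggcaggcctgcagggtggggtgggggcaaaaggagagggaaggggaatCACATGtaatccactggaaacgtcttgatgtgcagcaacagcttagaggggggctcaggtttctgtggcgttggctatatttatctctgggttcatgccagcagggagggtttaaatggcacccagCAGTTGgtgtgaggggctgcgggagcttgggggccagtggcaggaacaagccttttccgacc
Id2: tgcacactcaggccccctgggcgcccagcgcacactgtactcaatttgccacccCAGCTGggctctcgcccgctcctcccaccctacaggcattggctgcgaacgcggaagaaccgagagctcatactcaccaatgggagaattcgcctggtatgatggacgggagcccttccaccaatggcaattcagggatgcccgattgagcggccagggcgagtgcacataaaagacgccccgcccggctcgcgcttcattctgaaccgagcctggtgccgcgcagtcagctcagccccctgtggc
Mdfi: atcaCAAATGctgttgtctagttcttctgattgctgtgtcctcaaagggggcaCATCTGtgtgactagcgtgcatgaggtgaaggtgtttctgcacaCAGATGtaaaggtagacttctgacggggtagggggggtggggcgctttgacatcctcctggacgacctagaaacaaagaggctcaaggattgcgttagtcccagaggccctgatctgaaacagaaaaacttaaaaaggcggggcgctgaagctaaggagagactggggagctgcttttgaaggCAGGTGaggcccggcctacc
The Myog window (chr1:134289754-134290053, plus strand) holds CACATG at -138 and CAGTTG at -12 from the start. That of Id2 (chr12:25096043-25096342, minus strand) holds CAGCTG, the letters MyoD prefers, at -196. Mdfi (chr17:47834642-47834941, minus strand) has 4 matches, of which CAGGTG at position 31 is the reverse complement of CACCTG, the letters that Snail and ZEB proteins prefer. The windows of Id3, Twist1 and Twist2 hold no CANNTG. Among all 32851 windows 72.3% hold CANNTG, 16.3% CAGCTG and 20.2% CACCTG or its reverse complement, with the last 2 motifs counted again within the first, and of the 9 windows 5, 2 and 1 do. A match describes letters only.

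Relatives of the regulators were taken as a list of 20 further HLH, Snail, ZEB and I-mfa genes, of which 1 rose and 0 fell (background 0.125% higher). That gene was Heyl, a Notch-induced bHLH repressor. It read 9.64, 9.36 and 9.52 on the H19 siRNA arrays, against 8.59, 8.45 and 8.57 on the control siRNA arrays, a difference of 0.97 (SE 0.08, limma adjusted p = 0.0117). The call was lost when any array other than H19 siRNA replicate 2 was left out (adjusted p 0.0657 to 0.101) and over every row of the table (0.0518). The list's median was 0.04, and 15 of its 20 genes had a positive difference. Hes1, another Notch-responsive repressor, differed by 0.22 (limma adjusted p = 0.248) and Snai3 by 0.28 (limma adjusted p = 0.253). Snai1, closest in kind to Snai2, averaged 9.59 ± 0.03 with H19 siRNA and 9.43 ± 0.07 with control siRNA (SD, n = 3 each), without passing (limma adjusted p = 0.263). Id4 was at -0.02 with an interval from -0.18 to 0.14, and Zeb2 at -0.03 with an interval from -0.11 to 0.06.

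**Figure D3:**
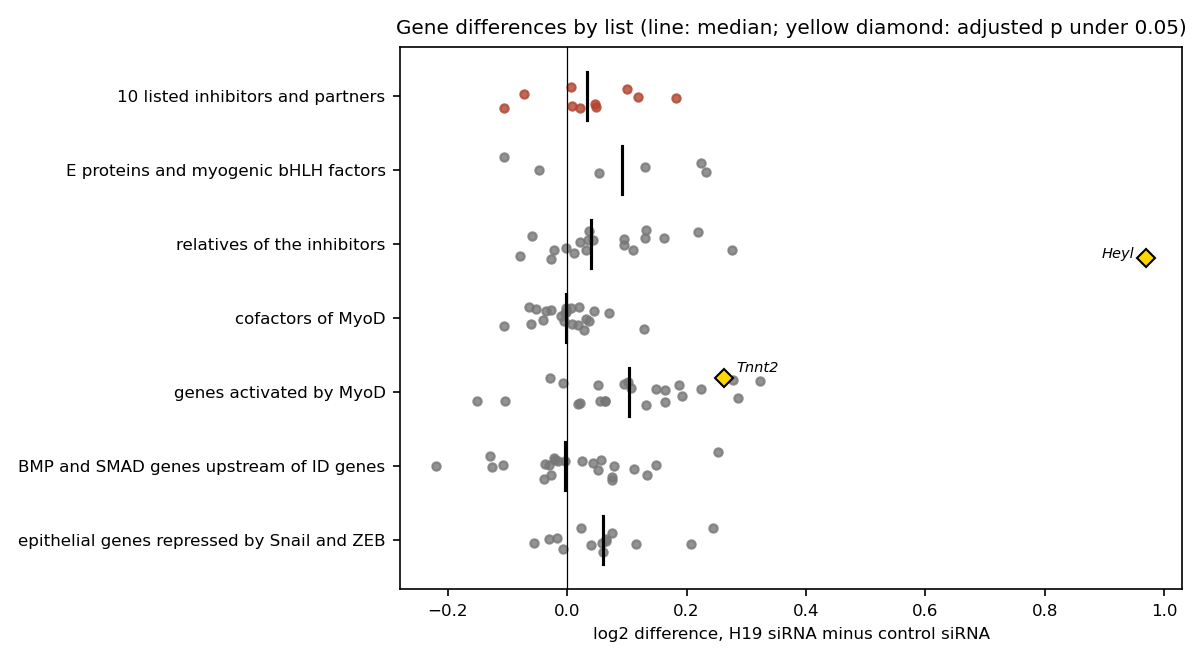
Log2 difference of every measured gene, H19 siRNA minus control siRNA (horizontal axis), for the 10 regulators in red and for 6 lists of related genes in grey, with the median of each list as a black line and genes past an adjusted p of 0.05 as yellow diamonds. The called genes are Heyl and Tnnt2. The medians run from -0.0040 for BMP and SMAD genes to 0.10 for genes activated by MyoD.

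Genes that MyoD activates had mostly positive differences, and 1 of them passed. Of 24 measured genes 20 were positive, with a median of 0.10, and 1 rose and 0 fell over all units (background 0.125% higher). Tnnt2, the troponin T of developing muscle, read 12.71, 12.71 and 12.73 on the H19 siRNA arrays, against 12.44, 12.47 and 12.44 on the control siRNA arrays (limma adjusted p = 0.0425). Its call was lost after median centring (adjusted p = 0.0976), over every row of the table (0.129), with the replicate number as a block (0.326) and without any single array (0.0969 to 0.261). Cdh15, which encodes M-cadherin, differed by 0.28 with a limma adjusted p of 0.0519, and Myog by 0.22 as above. On the same arrays the mean of the 7 fibroblast markers was lower with H19 siRNA (9.77 to 9.81, against 9.97 to 10.01 with control siRNA). Dcn and Lum were called lower, but 4 of the 7 markers had a positive difference and their median difference was 0.01. The part of these markers in this list was not tested. Groups did not overlap for 17 of the 24 genes, 15 higher and 2 lower, where 17.6% of all units had such groups. The lower 2 were Mef2c at -0.10 and Casq2 at -0.15. With an intensity trend and robust variance 12 of the 24 passed, all higher, where 2.02% of all units passed. Some of these genes were in lists known to be higher in these data, so the count is not independent evidence. Tnnt2, Cdh15 and Myog, among others, are also among the muscle markers above.

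BMP signalling through SMAD proteins is a known inducer of ID genes. Of 23 measured ligands, receptors, SMADs, antagonists and feedback targets of that pathway 0 passed, 11 had a positive and 12 a negative difference, and the median was -0.0040. Bmp4, a BMP ligand, averaged 11.77 ± 0.04 with H19 siRNA and 11.90 ± 0.01 with control siRNA (SD, n = 3 each). It differed by -0.13 (limma adjusted p = 0.265). Grem1, a secreted BMP antagonist, differed by -0.13 too (limma adjusted p = 0.280), and Bmp6 by 0.25 (limma adjusted p = 0.129). Bmp4 and Grem1 passed, both lower, with an intensity trend and robust variance, where 2.02% of all units passed. Bmp6 passed, higher, with the filter at the median, where 2.47% of the units kept were called. Smad6 and Smad7, inhibitory SMADs that BMP signalling induces as it does ID genes, were at -0.03 (interval -0.14 to 0.08) and -0.04 (interval -0.13 to 0.06). The feedback genes and the ID genes thus had intervals that include 0.

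Cofactors through which MyoD acts on chromatin also stayed below the threshold. Among 22 measured cofactors 0 passed, 10 were positive and 12 negative, and the median was -0.0012. Smarcd3, the BAF60c subunit that MyoD recruits to muscle loci, averaged 10.19 ± 0.07 with H19 siRNA and 10.06 ± 0.05 with control siRNA (SD, n = 3 each), and its limma adjusted p was 0.394. Prmt5, an arginine methyltransferase, differed by 0.07 and the acetyltransferase Kat2b by -0.11, with limma adjusted p-values of 0.494 and 0.633. In all 15 alternatives 0 of the cofactors passed.

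Epithelial genes are the textbook targets that SNAI2, ZEB1 and Twist proteins repress. Of 14 such genes 0 passed, 10 were positive, and the median difference was 0.06. Cldn4 and Cldn3, claudins of tight junctions, differed by 0.24 and 0.21 (limma adjusted p = 0.220 and 0.405), and Ocln, encoding occludin, by 0.11 (0.575). Cldn4 averaged 7.15 ± 0.10 with H19 siRNA and 6.90 ± 0.05 with control siRNA (SD, n = 3 each). These probe sets were dim, with Cldn4 at the 45.9th, Cldn3 at the 44.3rd and Ocln at the 21.5th percentile of all units, and whether they lay above background was not tested.

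The genes whose profile was most like that of Zeb1, the member with the smallest p, were Dgkz, Abi1 and Gnaq. Likeness was the root mean square difference over the 6 arrays after subtracting each gene's own mean, over 14153 genes above the 30th percentile of level. It was 0.0079 for Dgkz, 0.0092 for Abi1 and 0.010 for Gnaq, against a root mean square spread of 0.057 for Zeb1 itself. None of the 3 passed the test, with differences of 0.10, 0.09 and 0.12 and limma adjusted p-values of 0.369, 0.455 and 0.322. They were picked for likeness to Zeb1 on these same arrays, so differences near that of Zeb1 follow from the choice.

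**Figure D4:**
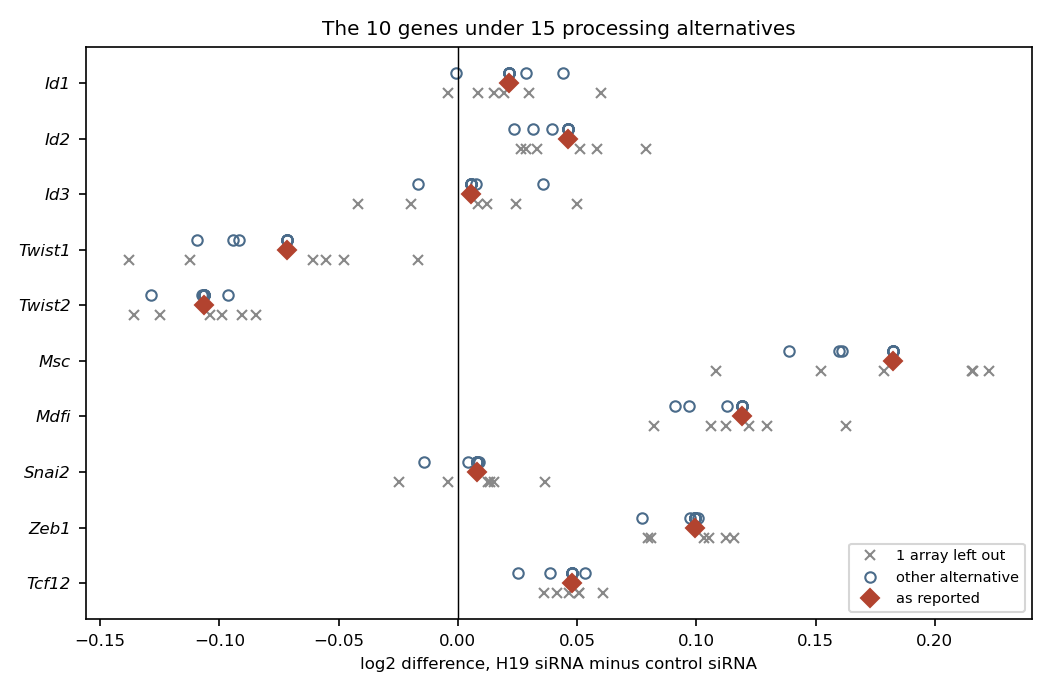
Log2 difference of each of the 10 genes, H19 siRNA minus control siRNA (horizontal axis), as reported (red diamonds), under other processing alternatives (open circles) and with 1 array left out (grey crosses). Id1, Id3 and Snai2 have points on both sides of 0, whereas Twist1 and Twist2 stay below 0 and Id2, Msc, Mdfi, Zeb1 and Tcf12 stay above it.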

How the data were processed

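Expression was measured on 6 arrays, 3 with H19 siRNA and 3 with control siRNA, grouped by the sample titles. Per the submitters' processing notes, the authors used RMA and Affymetrix Expression Console, and the deposited log2 values hold 1 level per probe set; the version is not given in the sources used here. No detection calls were used here, so dim probe sets could not be marked, and the number of arrays limits precision. Of 35556 rows, 21789 had 1 gene symbol in GEO's platform annotation, 1621 had several and 12146 were not listed. The probe set with the highest mean stood for a gene, which with the several-symbol probe sets gave 21559 units. Gene identifiers of 21698 probe sets matched the RefSeq table. Groups were compared in R 4.3.3 with limma 3.58.1 (lmFit, eBayes; two-sided, without covariates or filter), with Benjamini-Hochberg adjustment over all units; the fit was tested on simulated data. Differences are H19 siRNA minus control siRNA. List genes without a measured unit were not analysed here. The members and lists were chosen with earlier results of these data known. Named were all 10 members, the Mir675 probe set, Myod1, Myog, the called genes and up to 3 with the smallest p of each list, and the 3 profiles nearest to the member with the smallest p; Dcn, Lum, Tcf3, Tcf4, Myf6, Mdfic, Snai1, Id4, Zeb2, Mef2c, Casq2, Smad6 and Smad7 were named after their values were seen. Alternatives covered normalisation, variance model, array weights, filters on dim probe sets, choice of probe set, the replicate number as a block and leaving out each array.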

Additional observations from a re-analysis of the deposited data

How the results depend on the processing

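In the 15 alternatives 0 of the 10 regulators passed, and 4 to 7 of them had groups that did not overlap. The share of all units with such groups moved too, from 15.5% over every row of the table to 30.5% without H19 siRNA replicate 2. The count of 7 regulators came from that last alternative. The Mir675 probe set passed in all 15, with differences from -1.91 to -1.86. Units called numbered 435 with an intensity trend and robust variance, 70 with array weights, 111 and 266 with filters at the 30th percentile and the median, 11 over every row of the table, 3 with the replicate number as a block, and 1 to 21 with 1 array left out, which also leaves fewer degrees of freedom. The median difference of the 10 genes, 0.03 as reported, was 0.011 after centring each array on its median and 0.021 to 0.055 with 1 array left out. Signs turned for Id1 (-0.00097), Id3 (-0.017) and Snai2 (-0.014) after that centring. With 1 array left out the differences ran from -0.0042 to 0.060 for Id1, -0.042 to 0.050 for Id3 and -0.025 to 0.036 for Snai2, turning sign for Id3 without control siRNA replicate 2 (-0.020), for Snai2 without control siRNA replicate 3 (-0.025) or H19 siRNA replicate 3 (-0.0043), and for Id1 (-0.0042) and Id3 (-0.042) without H19 siRNA replicate 1. Calls in the list of E proteins and myogenic factors numbered 3 for the trend model and 2 for either filter. Among relatives of the inhibitors they numbered 2 with the trend, 0 over every row and 0 to 1 with 1 array left out. Among genes activated by MyoD they numbered 0 after centring, 2 after a second quantile normalisation, 12 with the trend, 3 with array weights, 5 and 7 with the filters at the 30th percentile and the median, 0 over every row, 0 with the block and 0 with any array left out. BMP and SMAD genes had 2 calls under the trend model and 1 above the median level. The cause of these shifts was not tested. The replicate numbers are shared by the groups, but same-numbered arrays did not deviate together, with correlations of -0.02, -0.13 and -0.14. Arrays of unlike number gave -0.03 to 0.13. So few values cannot show whether same-numbered arrays shared a batch. The block left 0 of the 10 genes with an unadjusted limma p under 0.05. It also left 3 units called, against 43 as reported. The share of all units below that unadjusted value was not counted under the block. The 0 therefore cannot be read as particular to the 10 genes.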

Other observations

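The arrays of a group did not order the 10 regulators alike. H19 siRNA replicate 2 was the highest or the lowest of its group for 9 of the 10 genes, as it was for 77.0% of all units. It was the highest for Id2, Twist1, Msc and Mdfi and the lowest for Id1, Id3, Twist2, Zeb1 and Tcf12. H19 siRNA replicate 1 was the lowest for the other 5, against 28.2% of all units. The SD was larger among H19 siRNA arrays than among control siRNA arrays for 7 of the 10 genes, as it was for 61.2% of all units, and the median SD of the 10 genes was 0.06 with H19 siRNA and 0.04 with control siRNA.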
